A study of Homo sapiens with 3 samples.

Results

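The 10 genes described here encode chaperones, co-chaperones and degradation factors of the endoplasmic reticulum (ER), together with a transcription factor that controls many of them. They are HSPA5, CALR, PDIA4, CRELD2, DNAJB9, DNAJC3, XBP1, HERPUD1, EDEM1 and SEL1L. Every array probe whose printed gene name equals 1 of these symbols was taken, which gave 14 probes of the 41000 on the array and 10 of 30976 genes. HSPA5, XBP1, EDEM1 and SEL1L have 2 probes each and the other genes have 1.

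RNA came from 1205Lu, an established human melanoma line obtained as a lung metastasis of the WM793 line grown as a xenograft in mice, and 3 populations of this 1 line were measured. The original monolayer (OM) was kept for 14 days in RPMI-1640 with 10% FCS, the melanoma bodies (MB), attached 3D clusters of cells, for 14 days in hESC medium (DMEM/F-12) with 20% KO serum replacement, and the new monolayer (NM) for 14 days as bodies and then 10 days back in RPMI-1640 with 10% FCS, with residual bodies taken away before RNA was prepared. The comparison of MB with OM asks which transcripts differ between 3D and monolayer growth, and NM asks which of them return in the monolayer. Each population was hybridised to 1 Agilent array, so there is no biological replicate, no test across samples and no p-value. Medium, serum and growth form changed together between OM and MB and cannot be told apart.

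Proteins that enter the ER fold with the help of chaperones, and those that fail are sent back to the cytosol and destroyed by the proteasome, a route called ER-associated degradation (ERAD). When unfolded proteins accumulate, the sensors IRE1 (the product of ERN1), ATF6 and PERK (the product of EIF2AK3) start the unfolded protein response: IRE1 splices XBP1 mRNA, ATF6 is cut to release a transcription factor, and PERK slows translation and raises ATF4. ATF6 and spliced XBP1 are known to drive chaperone and ERAD genes, while ATF4 drives genes of amino acid supply and, in prolonged stress, of cell death, and it can also be raised by other kinases when amino acids are short.

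The 10 genes did not move as 1 block. HERPUD1 and XBP1 were lowest in MB and highest in NM, and HERPUD1 was 2.20-fold lower in MB than in OM. DNAJC3 did the opposite, 2.55-fold higher in MB than in OM and 4.81-fold higher than in NM. HSPA5, which encodes BiP, was highest in OM, and the other 6 genes spanned less than 2-fold over the 3 arrays. None passed 2-fold between the monolayers, although HSPA5 and DNAJC3 did so there under other scalings.

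All 14 probes were well above background on each array, and none was saturated or marked as an outlier. Signals are given in arbitrary units (a.u.) after each array was scaled to the mean of GAPDH, ACTB and HSP90AA1, by factors of 0.978 for MB and 0.877 for NM. Of the 41000 probes, 26516 to 29126 per array were well above background. Over 197 probes printed in several spots and brighter than 100 a.u., the SD of the log2 ratio of single spots between MB and OM was 0.07, and 2 SD equal 0.14, or 1.10-fold. This spread is technical and covers neither separate cultures nor separate labellings. As a check of the cell type, 8 of 10 melanocyte and melanoma markers were well above background on OM and MB and 7 on NM. TYR and TYRP1 were above it on none. The summed signals of this list were 50030 a.u. in OM, 82368 a.u. in MB and 34261 a.u. in NM. Most of each sum came from S100B (25155, 44767 and 15170 a.u.) and MC1R (14913, 23351 and 9181 a.u.). Of the 8 markers measured for NM over OM, 4 were higher and 4 lower. Of 7 fibroblast markers 3 to 4 were above background per array (sums of 7764, 13344 and 7871 a.u. in OM, MB and NM), with LUM, COL1A1 and COL1A2 above it on none. Of 6 leukocyte markers 5 were above background on each array (sums of 5059, 2187 and 6202 a.u.), while PTPRC was above it on none. CD68 gave most of these leukocyte sums (4716, 1766 and 5637 a.u.). The part of such differences in the values below was not tested, and in bulk RNA fewer cells of a type and less RNA per cell cannot be told apart.

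The promoters of these genes were read first, because several carry the elements through which ATF6 and XBP1 are known to act. The RefSeq windows (GRCh38.p14) run from 250 bases before the start site to 50 after it, and all 10 genes had at least 1 window. The ER stress response element (ERSE) was searched on both strands as CCAAT and CCACG separated by any 9 bases. ERSE-II was searched as ATTGG, any base and CCACG, the UPRE core as TGACGTGG and the amino acid response core, bound by ATF4, as TGATGNAA. In the 10 genes no element overlaps another. An ERSE was present in HSPA5, CALR, CRELD2 and XBP1, 4 of the 10 genes, against 0.0916% of 27305 genes with a window and 0.0769% of all 35116 windows. ERSE and ERSE-II were chosen because ATF6 and XBP1 are known to act through them on genes of this kind. Their share here is therefore no independent result about the 10 genes. HERPUD1 holds an ERSE-II, found in 0.0696% of genes and 0.0541% of windows. It was the only one of the 10 with an amino acid response core, found in 4.46% of genes and 3.62% of windows. With 10 genes, 1 match to this core is too few to set apart from that share. No window of the 10 holds the UPRE core, which is in 0.729% of windows, and no match says only that these letters are absent there. In the stretches below, 5′ to 3′ along the gene's strand, capitals mark the elements, and they are shown because they separate HERPUD1 from the 4 ERSE genes:
HSPA5: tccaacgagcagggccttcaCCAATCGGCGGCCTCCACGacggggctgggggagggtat
XBP1: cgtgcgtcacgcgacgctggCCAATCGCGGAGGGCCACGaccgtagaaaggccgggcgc
CALR: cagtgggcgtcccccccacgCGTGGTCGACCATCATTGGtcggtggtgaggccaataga
CRELD2: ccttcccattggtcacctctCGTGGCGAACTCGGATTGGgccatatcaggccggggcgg
HERPUD1: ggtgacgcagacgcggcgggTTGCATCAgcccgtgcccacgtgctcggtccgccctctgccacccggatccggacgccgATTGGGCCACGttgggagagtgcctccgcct

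In GRCh38.p14 the HSPA5 stretch is chr9:125241371-125241429 on the minus strand and its ERSE lies at -66 to -48 from the start site. The XBP1 stretch is chr22:28800583-28800641 on the minus strand, with the ERSE at -52 to -34 in 1 of the gene's 2 windows. The CALR stretch is chr19:12938364-12938422 and the CRELD2 stretch chr22:49918534-49918592, both on the plus strand, and their ERSEs run on the opposite strand at -225 to -207 and -80 to -62. The HERPUD1 stretch is chr16:56931946-56932055 on the plus strand. Its ERSE-II lies at -117 to -107 and its amino acid response core, on the opposite strand, at -176 to -169. PDIA4, DNAJB9, DNAJC3, EDEM1 and SEL1L had none of the 4 elements in their windows.

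**Figure D1:**
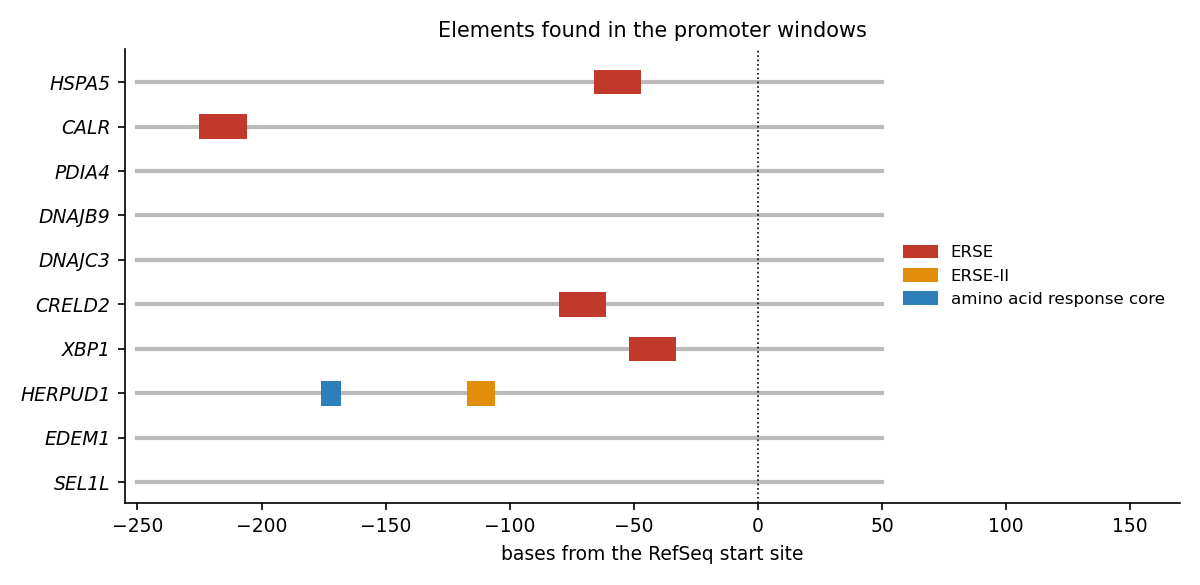
Positions of the elements in the promoter windows of the 10 genes, in bases from the RefSeq start site (dotted line). Grey lines are the windows from 250 bases before to 50 after the start, and coloured blocks are elements; XBP1 and PDIA4 have 2 windows each, drawn as 1 line. ERSE blocks stand in HSPA5, CALR, CRELD2 and XBP1, HERPUD1 holds an ERSE-II and an amino acid response core, and the other 5 windows are empty.

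HSPA5 encodes BiP, the Hsp70 of the ER, which binds unfolded chains and holds the stress sensors inactive. Its brighter probe read 41610 a.u. in OM, 29438 a.u. in MB and 22814 a.u. in NM. OM was the highest array and NM the lowest. The log2 ratio was -0.50 for MB over OM, -0.87 for NM over OM (1.82-fold lower, past 2-fold in 3 of 12 alternatives and as low as -1.06) and 0.37 for MB over NM. The gene's other probe, in another part of the transcript, read 16214 a.u., 11191 a.u. and 10148 a.u., with log2 ratios of -0.53, -0.68 and 0.14. Both probes put the arrays in the same order, but the other probe's difference between MB and NM was within 2 SD of single spots. The brighter probe is given here because its 60 bases lie across a span of 1046 bases in hg17, chr9:125078978-125080023 on the minus strand, so that 986 bases of the genome are skipped within it:
HSPA5 probe: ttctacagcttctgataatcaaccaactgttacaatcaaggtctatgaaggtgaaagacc

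CALR encodes calreticulin, a lectin chaperone that binds calcium and newly made glycoproteins. It read 26840 a.u. in OM, 33748 a.u. in MB and 19909 a.u. in NM. MB was the highest array and NM the lowest, with a log2 ratio of 0.33 against OM and 0.76 against NM. PDIA4, a disulfide isomerase of the ER also called ERp72, read 42699 a.u., 53109 a.u. and 46249 a.u. on OM, MB and NM. It too was highest in MB, by 1.24-fold over OM. Its difference of 0.12 between NM and OM was within 2 SD of single spots and changed sign under 3 other scalings of the arrays. CRELD2, an ER protein with disulfide isomerase activity whose gene responds to ER stress, read 21161 a.u., 22454 a.u. and 16184 a.u. Its log2 ratio of 0.09 for MB over OM was within the spread of single spots and changed sign under 2 other scalings, and NM was 1.31-fold lower than OM.

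The co-chaperones DNAJC3 and DNAJB9 were both higher in MB than in OM, while NM was the lowest array for DNAJC3 and the highest for DNAJB9. DNAJC3 encodes p58IPK, a J-domain partner of BiP in the ER lumen that has also been described as an inhibitor of PKR and PERK. It read 2055 a.u. in OM, 5246 a.u. in MB and 1091 a.u. in NM. MB stood above both monolayers, at 2.55-fold over OM (log2 1.35) and 4.81-fold over NM (log2 2.26), and NM was 1.88-fold lower than OM, past 2-fold without scaling and with spike-in scaling. Among all genes measured its MB over OM ratio lay at the 95.6th percentile. Its 1 probe, given because this is the widest range of the 10 genes, lies at chr13:95214001-95214144 in hg17 on the plus strand and skips 84 bases of that span of 144:
DNAJC3 probe: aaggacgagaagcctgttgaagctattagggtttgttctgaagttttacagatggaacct

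DNAJB9 encodes ERdj4, a J-domain protein that brings BiP to IRE1 and to ERAD substrates and is a known target of spliced XBP1. It read 3996 a.u. in OM, 5124 a.u. in MB and 7222 a.u. in NM. NM was the highest array, 1.81-fold over OM (log2 0.85), where DNAJC3 was lowest. With 1 probe each, no other part of these 2 transcripts was measured.

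**Figure D2:**
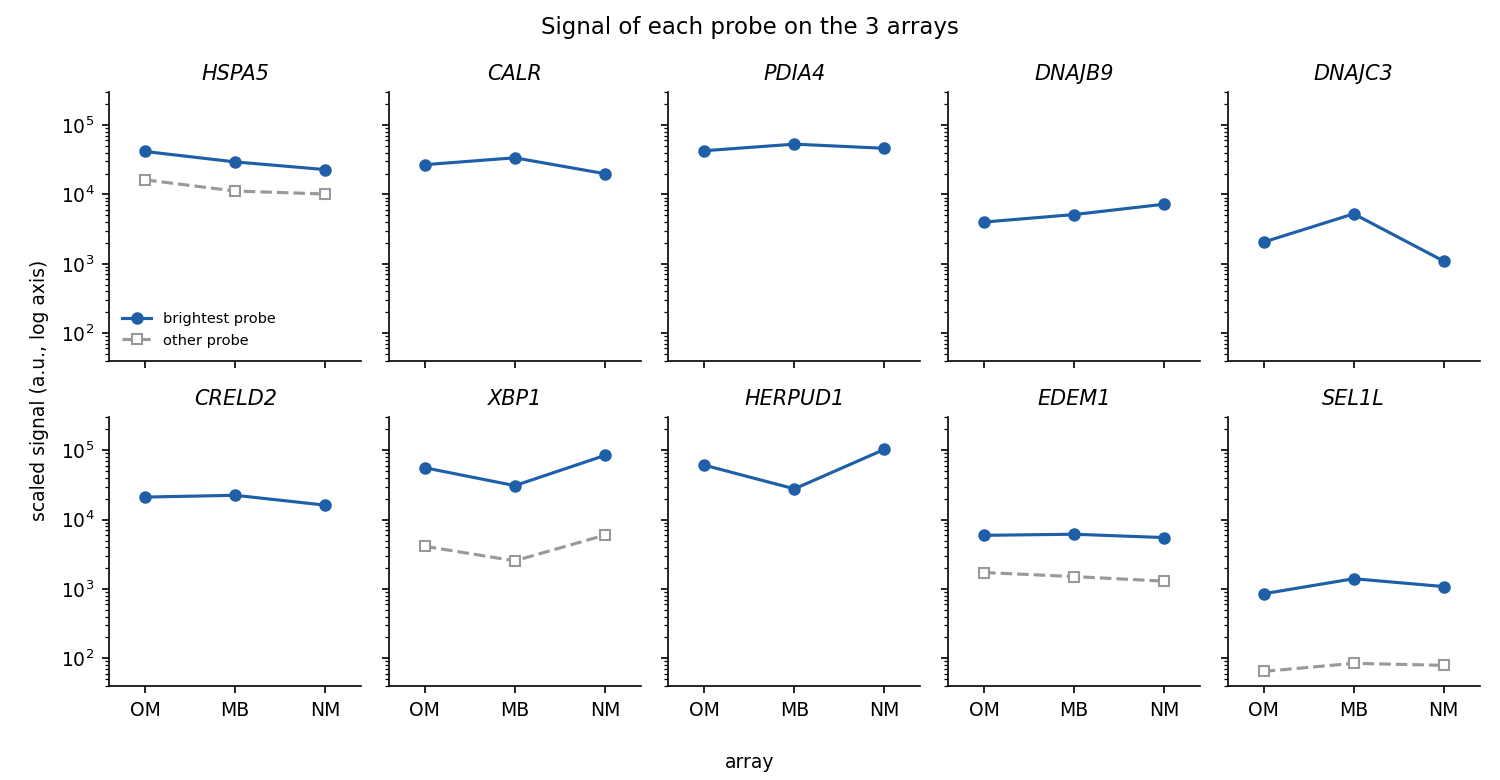
Scaled signal in a.u. (log axis) of each of the 14 probes on the OM, MB and NM arrays, 1 panel per gene. Filled points are the probe with the highest mean signal and open squares the other probe. DNAJC3 peaks at 5246 a.u. in MB, HERPUD1 and XBP1 dip there, and HSPA5 is highest in OM and lowest in NM on both probes.

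XBP1 encodes the transcription factor made from the mRNA that IRE1 splices. Its brighter probe read 56063 a.u. in OM, 30956 a.u. in MB and 84303 a.u. in NM. MB was the lowest array, 1.81-fold below OM (log2 -0.86) and 2.72-fold below NM (log2 -1.45), and the log2 ratio of NM over OM was 0.59. Against OM it passed 2-fold only under the 75th percentile and spike-in scalings (log2 as low as -1.13). The other probe read 4127 a.u., 2547 a.u. and 5984 a.u., with log2 ratios of -0.70 for MB over OM, -1.23 against NM and 0.54 between NM and OM. Both probes put NM first and MB last. Whether a probe separates the spliced from the unspliced form was not analysed here, so these values are levels of XBP1 mRNA and not of IRE1 activity.

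HERPUD1 encodes an ER membrane protein that gathers the ERAD machinery around the ubiquitin ligase SYVN1. It read 61058 a.u. in OM, 27797 a.u. in MB and 103305 a.u. in NM. MB was 2.20-fold below OM (log2 -1.14) and 3.72-fold below NM (log2 -1.89), the widest fall of the 10 genes in both comparisons, and NM was 1.69-fold above OM (log2 0.76). Under the 12 alternative settings the fold by which MB was below OM ran from 2.14 to 2.66. The gene is at the 4.55th percentile of all genes for MB over OM.

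The 2 other ERAD genes moved less. EDEM1 encodes a mannosidase-like protein that marks misfolded glycoproteins for degradation. It read 5941 a.u., 6163 a.u. and 5516 a.u. on OM, MB and NM, which span 1.12-fold. Its second probe read 1728 a.u., 1510 a.u. and 1298 a.u. and gave -0.20 for MB over OM where the first gave 0.05, the only sign on which 2 probes of 1 gene differ among 12 pairs. The first probe's own sign turned under 3 other scalings. SEL1L, the adaptor that holds the SYVN1 ligase complex together, read 853 a.u., 1406 a.u. and 1084 a.u., highest in MB and lowest in OM, with a log2 ratio of 0.72 for MB over OM. Its other probe was dim, at 64.7 a.u., 84.8 a.u. and 79.2 a.u., and gave 0.39. Both SEL1L probes ordered the arrays alike, but the dim probe's log2 ratio of 0.10 for MB over NM was within 2 SD of single spots. That spread comes from probes brighter than 100 a.u.

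**Figure D3:**
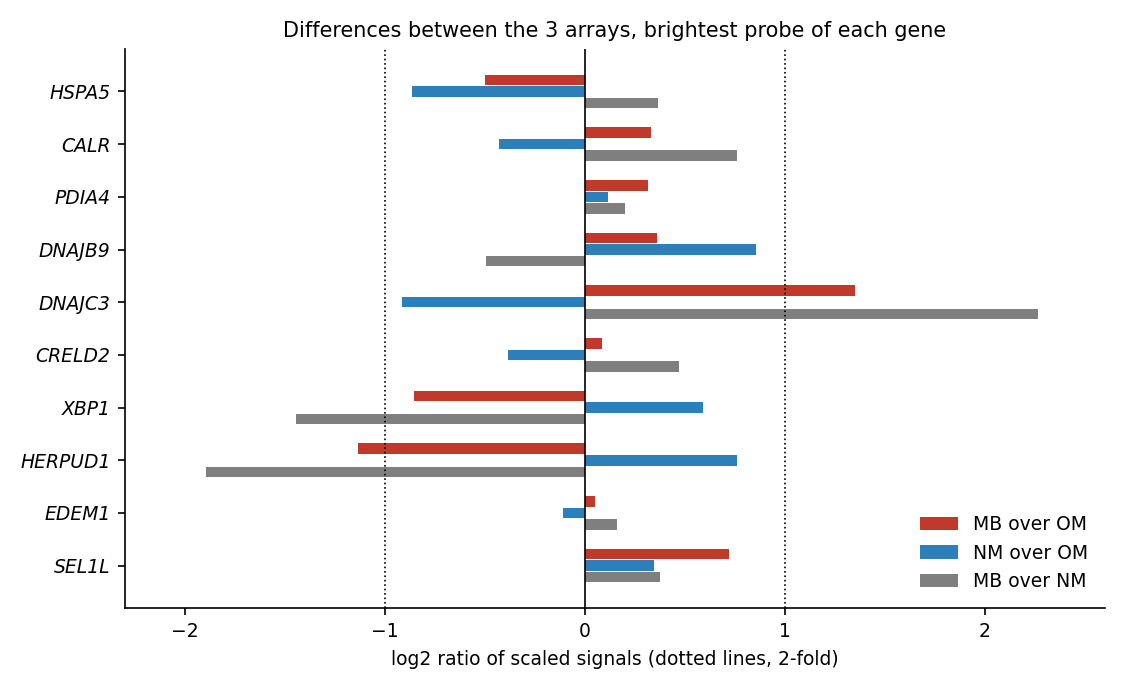
Log2 ratios of scaled signals between the arrays for the brightest probe of each of the 10 genes, with dotted lines at 2-fold. Red bars are MB over OM, blue bars NM over OM and grey bars MB over NM. DNAJC3 is past 2-fold higher in MB against both monolayers, HERPUD1 past 2-fold lower against both, XBP1 past 2-fold lower against NM, and no blue bar reaches 2-fold.

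Between MB and OM, 1 of the 10 genes was at least 2-fold higher (DNAJC3), where 7.83% of 22222 genes measured were, and 1 was at least 2-fold lower (HERPUD1), where 5.43% were. Scaled to spike-in probes these shares of all genes became 4.91% and 8.99%, at the 75th percentile 5.63% and 7.54%, and after quantile normalization 6.58% and 6.73%. Between MB and NM, 1 gene was higher (DNAJC3, background 15.7% of 21935 genes) and 2 were lower (HERPUD1 and XBP1, background 10.0%), and without scaling the background shares were 19.1% and 7.74%. Between NM and OM none of the 10 was 2-fold higher or lower, where 4.79% and 8.91% of 21600 genes were (3.38% and 11.2% without scaling). The count lower in NM became 1 after quantile normalization and 2 without scaling or with spike-in scaling. None passed the 5-fold limit set in the study's methods, which 1.39% of genes passed for MB against OM, 3.69% for MB against NM and 1.44% for NM against OM. With 10 genes, counts of 0 to 2 are too few to set apart from these shares. The 10 genes had medians on the log2 scale of 0.20 (MB against OM), 0.28 (MB against NM) and 0.00 (NM against OM), beside 0.09, 0.06 and 0.05 for all genes. MB was the highest array for 6 of the genes, NM for 3 and OM for 1, while NM was the lowest for 5, OM for 3 and MB for 2. The order of the arrays was not counted over all genes.

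**Figure D4:**
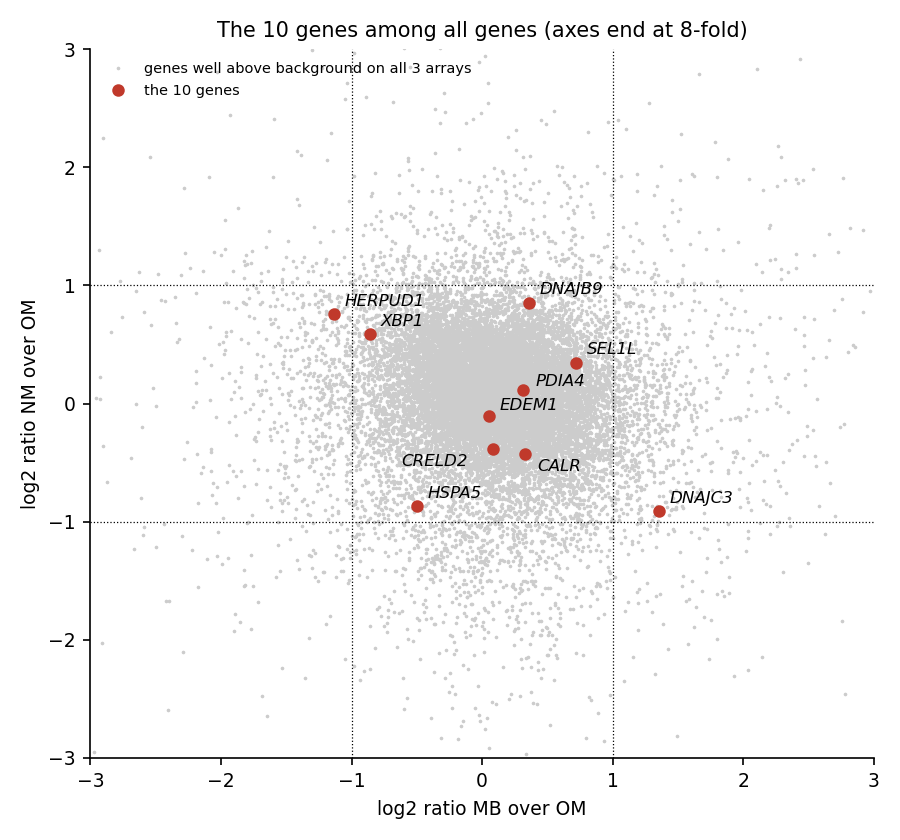
Log2 ratio of NM over OM (vertical) against MB over OM (horizontal) for genes well above background on all 3 arrays (grey) and the 10 genes (red), with dotted lines at 2-fold. Both axes share the OM array. HERPUD1 and XBP1 sit at the upper left, DNAJC3 at the lower right and HSPA5 at the lower left.

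Other lists of ER genes, also chosen with earlier results known, place these values. Each count past 2-fold is to be read beside the share of all genes measured. These shares were 7.83% higher and 5.43% lower for MB over OM. They were 15.7% and 10.0% for MB over NM, and 4.79% and 8.91% for NM over OM. Of 18 ER chaperones and co-chaperones, which include 5 of the 10 genes, 1 was past 2-fold higher in MB over OM and none lower, and the median was 0.09. For NM over OM the median was -0.40 (-0.55 to -0.42 from that of all genes over the alternatives), with 1 past 2-fold higher and 2 past it lower (1 to 4 over the alternatives). SDF2L1, an ER protein that works with BiP and J-domain partners, read 57005 a.u., 45390 a.u. and 18524 a.u. on OM, MB and NM, 3.08-fold lower in NM than in OM. MANF, a secreted ER stress protein, was 2.01-fold lower in NM than in OM at 172399 a.u., 166202 a.u. and 85603 a.u., and under 3 of 12 alternatives just short of 2-fold (log2 -0.94 at the least). CLGN, a relative of calnexin best known from testis, went the other way, from 1337 a.u. in OM and 677 a.u. in MB to 10482 a.u. in NM, 7.84-fold over OM. HSP90B1, which encodes GRP94, the Hsp90 of the ER, was 0.12 higher in MB and 0.02 higher in NM than in OM on the log2 scale on its brighter probe. Both signs turned under other scalings, and the other probe gave -0.10 and -0.53.

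Of 23 measured oxidoreductases and prolyl isomerases of the ER, 1 passed 2-fold in each direction for MB over OM, with a median of 0.14, and none passed it for NM over OM. FKBP7, a prolyl isomerase, rose 2.18-fold in MB, from 4185 a.u. in OM to 9119 a.u., and read 4562 a.u. in NM, but its log2 ratio of 1.12 for MB over OM was as low as 0.85 under other scalings. PDIA2, a pancreas isomerase, was dim at 49.7 a.u. in OM and not well above background in MB, at least 2.51-fold lower, a call lost with other background settings (log2 -0.38 with normexp). Of 36 ERAD genes, 1 was past 2-fold higher in MB than in OM, and HERPUD1 was the only one past 2-fold lower. The median was 0.25, beside 0.09 for all genes, and stayed 0.15 to 0.19 above that of all genes over the alternatives. DERL3, a derlin of the retrotranslocation channel, read 655 a.u., 1726 a.u. and 1764 a.u., 2.63-fold higher in MB and 2.69-fold higher in NM than in OM, but its other probe gave log2 ratios of 0.57 and -0.40. SYVN1, the ligase that SEL1L and HERPUD1 serve, was 0.48 higher in MB and 0.20 higher in NM than in OM on the log2 scale.

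None of 23 sensors, proteases and transcription factors of the unfolded protein response passed 2-fold for MB over OM, with a median of 0.01, and XBP1 is 1 of them. ATF6 read 7018 a.u., 7407 a.u. and 8278 a.u. on OM, MB and NM, and EIF2AK3 read 593 a.u., 777 a.u. and 535 a.u. The log2 ratio of MB over OM was 0.39 for EIF2AK3 and 0.08 for ATF6, whose sign turned under 3 other scalings. ERN1 read 675 a.u., 425 a.u. and 872 a.u., 2.05-fold lower in MB than in NM, but its 3 probes disagreed there, from -1.04 to 0.57, and the median over probes turned the sign. BAX, which works with IRE1 at the ER besides its part in cell death, was 2.46-fold lower in NM than in OM on its brightest probe, while its 3 probes ran from -1.30 to 0.08.

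The PERK and ATF4 genes, none of which is among the 10, had the medians farthest from 0 of these lists. Of 16 genes, 10 were past 2-fold lower in MB than in OM and none higher, with a median log2 ratio of -1.56, and 13 were past 2-fold lower in MB than in NM and 1 past it higher (ATF5, a relative of ATF4, log2 1.19), with a median of -3.13. In NM over OM 7 were past 2-fold higher and none lower, with a median of 0.90. ATF4 itself read 209955 a.u. in OM, 72855 a.u. in MB and 265621 a.u. in NM, 2.88-fold lower in MB than in OM. DDIT3, which encodes CHOP, read 3790 a.u., 779 a.u. and 13400 a.u., and was 4.87-fold lower in MB than in OM and 3.54-fold higher in NM than in OM. CHAC1, an ATF4 target that breaks down glutathione, fell 14.2-fold in MB, from 9743 a.u. to 687 a.u., and read 11586 a.u. in NM. DDIT4, an inhibitor of mTORC1, was 5.81-fold lower in MB than in OM at 119034 a.u. against 20482 a.u. NUPR1, a stress-induced nuclear protein, read 295 a.u., 112 a.u. and 6988 a.u. and was 23.7-fold higher in NM than in OM. PPP1R15A, the phosphatase subunit GADD34 that reverses PERK signalling, was 3.86-fold higher in NM than in OM, at 8459 a.u. against 2190 a.u.

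HERPUD1 and XBP1 were lowest in MB and highest in NM, and ATF4, DDIT3 and CHAC1 have the same order of arrays (for ATF4 not after quantile normalization, where NM over OM was -0.05). HSPA5, CALR and CRELD2, which like XBP1 hold an ERSE, were lowest in NM. So were DNAJC3 and EDEM1, which hold none of the elements searched. The comparisons share arrays, and no association between element and direction was tested. Among the ER lists 11 genes hold an ERSE or ERSE-II, of 44 genes in the whole reference. The elements were chosen for their known part in such genes, so this count is no independent result about the lists. The log2 ratios of the 11 genes ran from -1.14 to 0.33 for MB over OM, with a median of 0.02. For NM over OM they ran from -1.62 to 0.76, with a median of -0.39. HERPUD1 and XBP1 gave the highest of those NM over OM ratios. CANX, calnexin, a lectin chaperone with an ERSE, had -0.72, and PDIA6, another disulfide isomerase with an ERSE, had -0.53, while ERO1B, an oxidase that recharges disulfide isomerases and also holds an ERSE, had 0.56, close to the 0.59 of XBP1. None of the 14 PERK and ATF4 genes with a window holds either element, which 0.161% of 27305 genes do. Nor does any of 31 translocation and glycosylation genes, 33 ER-Golgi transport genes or 16 cytosolic heat shock genes with a window. Lists of these sizes are too small to set a count of 0 apart from that share.

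**Figure D5:**
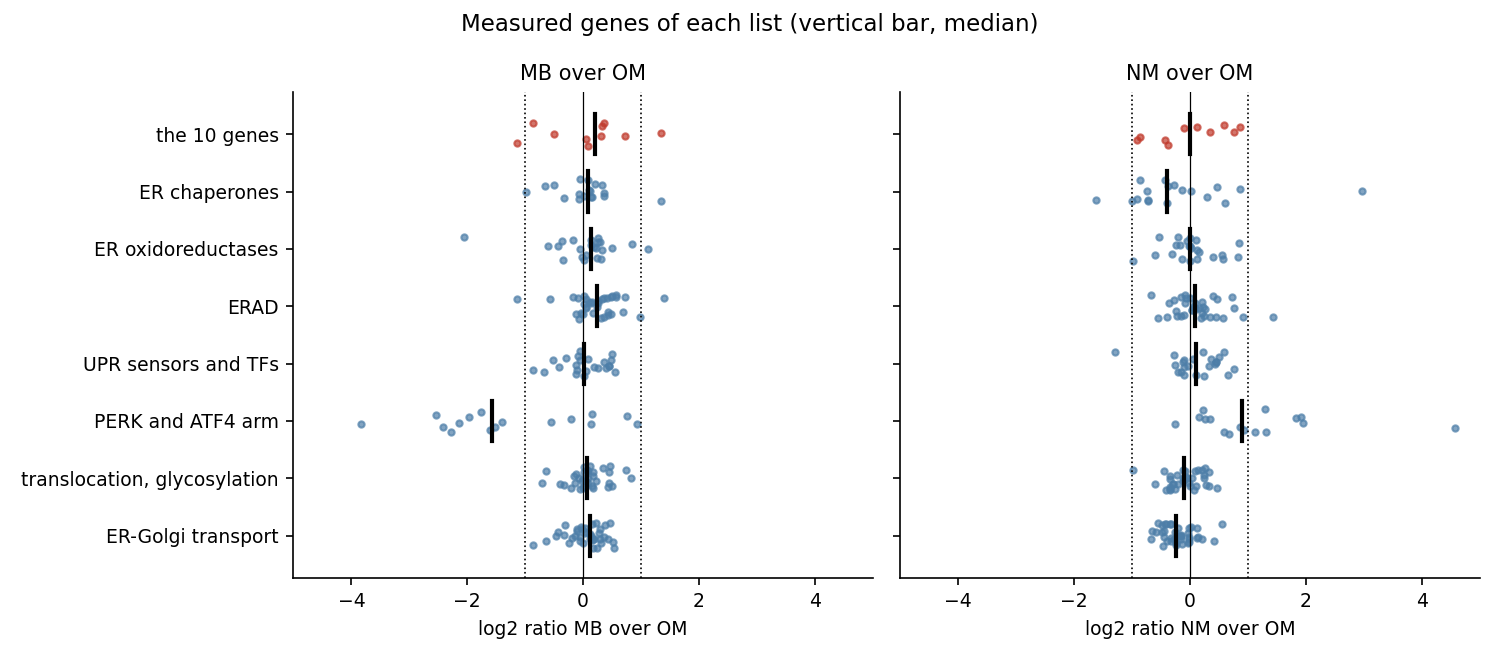
Log2 ratios of MB over OM (left) and NM over OM (right) for the measured genes of the 10-gene set (red) and of 7 lists of ER and ER stress genes (blue), 1 point per gene, with a black bar at each median and dotted lines at 2-fold. The PERK and ATF4 genes lie to the left for MB over OM, median -1.56, and to the right for NM over OM, median 0.90, while the ER chaperones lie to the left for NM over OM, median -0.40.

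The genes with a pattern nearest to HSPA5 were sought by the distance over the log2 ratios of MB over OM and NM over OM, among 10366 genes above background on all 3 arrays with a mean signal over 1000 a.u. The nearest 5 were PAQR6 (distance 0.06), a transcript without a gene symbol (0.06), another such transcript (0.09), ACSL3 (0.10) and LOC644656 (0.11). PAQR6 encodes a membrane progesterone receptor and ACSL3 a long-chain acyl-CoA synthetase. Of the other 9 genes CRELD2 came nearest at 0.76, rank 868, and DNAJB9 was the farthest at 1.92, rank 9671. With 3 arrays such a distance compares only 2 ratios, and it says nothing of shared control.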

How the data were processed

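Total RNA of 3 populations of 1205Lu was labelled with Cy3 and hybridised to 3 arrays of 1 slide by the authors. For each spot the authors deposited the intensity given by Agilent Feature Extraction (version 9.5.3.1 per the file headers, 9.5 per the labels), background-subtracted on a linear scale and not scaled between arrays. The deposited series value table holds the same intensity values (130128 of 130128 within 0.1%).

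Control spots and outlier spots (77, 79 and 81 on OM, MB and NM) were left out, a probe's spots were averaged, and signals were scaled to a common arithmetic mean over GAPDH, ACTB and HSP90AA1 (probes printed in 10 spots). HSP90AA1 is itself a chaperone gene, and a scaling without it was an alternative. A gene is represented by its probe with the highest mean signal. Genes count as measured where well above background on at least 1 array of a comparison, and a probe not well above background has only a bound. Calls are 2-fold, or 5-fold if the higher of the signals exceeds 100 a.u. Coordinates of probes are those of the files in hg17; promoter windows are from RefSeq (GRCh38.p14). For naming, an accession placed 23434 of the 41000 probes, a symbol 2317 and a synonym 1043, and the array's own name stands for 14206. The exon or UTR of each probe was not analysed here.

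The 10 genes and all lists were chosen with earlier results of these data known. Named genes are the 10, the 2 largest folds up and 2 down past 2-fold of each other list for MB over OM and NM over OM, ERN1, EIF2AK3, ATF6, ATF4, DDIT3, HSP90B1 and SYVN1, and the 5 genes nearest to HSPA5. CANX, PDIA6, ERO1B, ATF5, PDGFRA and the genes named in the observations on transport and heat shock were chosen after their values were seen. Of the marker lists the rule also names DCN, PDGFRB, CD68 and ITGAM, and a further gene that is not reported here. With 1 array per population there is no test: the number of arrays limits the precision, and spots give technical spread alone. The 12 alternatives changed scaling, background, outlier spots, the choice of probe, the filter and the source of values. The code was tested on simulated data. Tools were Python 3.11.15, numpy 2.4.6, pandas 2.3.3, matplotlib 3.10.9, R 4.3.3 and limma 3.58.1 (normexp, offset 50).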

Additional observations from a re-analysis of the deposited data

How the results depend on the processing

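Of 30 ratios of the 10 genes, 27 kept their sign under all 12 alternatives; the exceptions were EDEM1 and CRELD2 for MB over OM and PDIA4 for NM over OM. HERPUD1 and DNAJC3 (MB against both monolayers) and XBP1 (MB against NM) stayed past 2-fold in all 12. Not all of the 12 could move these ratios. The value table holds the same intensities, and all probes of the 10 genes passed the filter on all 3 arrays. None of their spots was marked as an outlier, and the median over probes cannot move a gene with 1 probe. Genes of the 10 past 2-fold lower in MB than in OM became 2 with XBP1 (75th percentile, spike-in probes), and past 2-fold lower in NM than in OM 1 (quantile), 2 (no scaling) and 2 (spike-in probes), from 0. Past 5-fold between MB and NM stood 1, DNAJC3, without scaling. Medians relative to all genes moved as follows. For the 10 genes, MB over NM was 0.42 (quantile) and 0.14 (median over probes), and NM over OM -0.20 (quantile). For ER chaperones, MB over NM was 0.58 (quantile) and 0.44 (normexp), and NM over OM -0.55 (quantile). For ERAD, MB over NM was 0.19 (quantile) and 0.18 (normexp), and NM over OM -0.040 (quantile). For PERK and ATF4 genes, MB over OM was -1.54 (quantile) and -1.56 (normexp), MB over NM -2.86 (quantile), -2.93 (normexp), -2.98 (no background subtraction) and -2.73 (median over probes), and NM over OM 0.69 (quantile) and 0.67 (median over probes). ERN1 reversed to 0.17 for MB over NM (median over probes). The cause was not tested. The median of all genes for MB over OM went from 0.09 to -0.10 (75th percentile) and -0.19 (spike-in probes). Normexp cut the shares of genes past 2-fold to 3.86% higher and 2.58% lower (MB against OM), 8.01% and 7.38% (MB against NM), and 2.82% and 2.74% (NM against OM), no background subtraction to 4.33% and 2.83%, 8.90% and 7.85%, and 3.19% and 3.34%, and genes above background on all 3 arrays gave 5.48% and 3.77%, 11.3% and 9.58%, and 3.74% and 4.70%. Of counts in the lists that moved by over 1.5 times, most went between 0 and 1 or 1 and 2; for MB over NM, ER chaperones past 2-fold higher went from 2 to 5 (quantile, no scaling), ERAD genes from 0 to 2 (no scaling), translocation genes from 4 to 1 (75th percentile, spike-in probes), and sensors and factors past 2-fold lower from 4 to 2 (no scaling). No paired analysis was possible because each population has 1 array. No replicate could be left out.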

Other observations

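Genes of protein transport and of the cytosolic heat shock system were measured beside the ER genes. Of 36 genes of translocation, signal peptidase and glycosylation none passed 2-fold for MB over OM (median 0.06) or NM over OM (median -0.10). In MB over NM 4 were past 2-fold higher, where 15.7% of all genes measured were. Of 39 genes of ER-Golgi transport and retrieval, none passed 2-fold for MB over OM (median 0.12) or NM over OM, where the median was -0.24 (-0.36 to -0.28 from that of all genes over the alternatives). Of 15 measured cytosolic heat shock genes none passed 2-fold for MB over OM (median 0.14). For NM over OM their median was -0.38, and -0.52 to -0.41 from that of all genes over the alternatives. In MB over NM 4 were past 2-fold higher, where 15.7% of all genes measured were. The 4 heat shock genes were CHORDC1 (log2 1.48), HSPA8 (1.33), HSPA1A (1.16) and HSPH1 (1.13), which encode Hsp70 and Hsp110 family chaperones and an Hsp90 co-chaperone. HSP90AA1, 1 of the 3 genes used for scaling, read 65677 a.u. in OM, 62219 a.u. in MB and 55064 a.u. in NM after scaling.

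Among the marker genes, PDGFRB was 2.50-fold higher in NM than in OM, at 3120 a.u. against 1246 a.u., while PDGFRA read 3618 a.u. in NM against 5519 a.u. in OM (log2 -0.61), and the sum over the fibroblast list was 7871 a.u. against 7764 a.u. CD68, a lysosomal protein that macrophages share with other cells, was 2.67-fold lower in MB than in OM and read 4716 a.u. in OM, 1766 a.u. in MB and 5637 a.u. in NM. ITGAM was 2.57-fold higher in NM than in OM at 346 a.u. against 135 a.u. DCN was marked well above background in MB alone, at 27.5 a.u., at least 1.31-fold higher than in OM. The NM signal was close to it, at 25.6 a.u., so MB and NM are not set apart for this dim gene.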
